A study of Mus musculus with 4 samples.

Results

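The genes of the PIWI and Argonaute proteins were followed in the mRNA of mouse pachytene spermatocytes treated with BMH21 or with solvent. They were chosen by name: Piwil1, Piwil2, Piwil4, Ago1, Ago2, Ago3 and Ago4. Of these 7 genes, 6 had a row among the 15733 protein-coding genes listed, and Piwil4 was not analysed here. Suspensions of single mouse testicular cells were kept ex vivo for 12 h with 2.5 µM BMH21, an inhibitor of RNA polymerase I, or with DMSO (mock), and pachytene spermatocytes were then sorted by flow cytometry on Hoechst, a DNA dye. There were 2 libraries of each group, called biological replicates in the labels, and the sources used here do not give the strain or age of the mice. All the cells of the suspension met the compound before the sort, so the treated cells were not spermatocytes alone.

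Argonaute proteins bind a small RNA and use it as a guide to find complementary transcripts. The family has an AGO branch, which carries microRNAs and small interfering RNAs and is made in nearly all cells, and a PIWI branch, which carries PIWI-interacting RNAs (piRNAs) and is largely restricted to the germline. In the mouse testis PIWIL1 (MIWI) appears at the pachytene stage and lasts into round spermatids, PIWIL2 (MILI) is present from earlier germ cells onwards, and PIWIL4 (MIWI2) acts in fetal germ cells, where it directs DNA methylation of transposons. Among the AGO proteins AGO2 is the best known for cutting its target, and AGO4 has been found at the silenced sex chromosomes of spermatocytes.

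Totals ran from 30964370 to 41548269 counts per library, and the spread between replicates exceeded counting noise (chi-square divided by its degrees of freedom was 3.22 for the mock pair and 3.77 for the BMH21 pair). Markers of pachytene spermatocytes summed to 3509 and 3519 CPM (each count relative to its library total, per 1000000 counts, on totals scaled as described under processing) in the mock libraries and 3589 and 3664 CPM in the BMH21 libraries, over 14 genes of which only H1f6 was under 1 CPM. Within this sum 6 markers were called higher and 3 lower. The synaptonemal complex genes Sycp3 (125 to 172 CPM) and Sycp1 (173 to 209 CPM), the axis gene Hormad1 (160 to 201 CPM) and the recombination gene Msh4 (11.7 to 19.3 CPM) were among those that rose, and Sycp2 (611 to 558 CPM), Ccna1 (178 to 161 CPM) and Pou5f2 (59.7 to 51.5 CPM) fell, in group means. Spermatid markers, 10 genes, summed to 340.6 and 340.2 CPM in the mock libraries and 355.4 and 354.8 CPM in the BMH21 libraries. Spermatogonia markers, 11 genes of the 12 fixed, came to 873 and 883 CPM (mock) and 866 and 853 CPM (BMH21), of which Dmrtb1 gave 801 to 825 CPM, while Sall4, Sohlh1, Nanos3 and Ccnd2 were under 1 CPM in every library, and 2 of 9 tested, Kit (4.19 to 2.80 CPM) and Zbtb16 (3.28 to 1.68 CPM), were called lower. Each of the lists for Sertoli cells (3 genes of 8), Leydig cells (4 of 6), peritubular and endothelial cells (5 of 5) and macrophages (5 of 5) summed to under 10 CPM in every library, with Clu, Cyp17a1, Insl3, Lhcgr, Acta2, Cdh5, Myh11, Adgre1, Cd68 and Lyz2 under 1 CPM throughout. Of the Leydig markers 2 were tested and 1 was called lower. Star, most of the Leydig sum, was at 9.01 and 8.93 CPM in mock and 6.07 and 6.61 CPM in BMH21. No tested Sertoli, peritubular, endothelial or macrophage marker was called. The part of these cell types in the results below was not tested.

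The Argonaute genes are close relatives in sequence and the PIWI genes are not, which bears on how reads can be divided among them. The longest annotated coding sequences of Ago1, Ago2, Ago3 and Ago4 were 72.1% to 75.8% identical in pairs, against 57.9% for Piwil1 with Piwil2 (global alignments of GENCODE M21 transcripts). The longest run of bases that Piwil1 and Piwil2 shared in their coding parts was 12 bases long, gccatcaagaag. Ago1 and Ago3 shared an unbroken run of 170 coding bases, inside exon 12 of 19 in both (chr4:126448778-126448947 for Ago1 and chr4:126363657-126363826 for Ago3, minus strand, GRCm38). It is printed because a read that lies wholly in it cannot be given to one of these genes rather than the other. The aligned exon 12 bases of Ago4 (chr4:126509962-126510131, minus strand) and of Ago2 (chr15:73121075-73121244, minus strand) follow, each 5′ to 3′, with capitals where the base is not that of Ago1.
Ago1 and Ago3: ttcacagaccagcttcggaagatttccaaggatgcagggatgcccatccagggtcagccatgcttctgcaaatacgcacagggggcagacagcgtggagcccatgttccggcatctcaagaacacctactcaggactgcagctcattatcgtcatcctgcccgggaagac
Ago4: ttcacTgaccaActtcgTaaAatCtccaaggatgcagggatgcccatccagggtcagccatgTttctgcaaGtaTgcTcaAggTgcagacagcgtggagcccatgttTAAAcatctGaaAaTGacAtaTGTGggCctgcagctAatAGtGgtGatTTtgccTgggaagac
Ago2: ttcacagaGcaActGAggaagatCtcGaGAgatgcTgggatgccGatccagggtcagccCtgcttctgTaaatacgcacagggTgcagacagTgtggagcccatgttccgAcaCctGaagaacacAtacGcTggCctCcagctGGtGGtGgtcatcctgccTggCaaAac
Ago4 differed from Ago1 at 33 of these 170 positions, with an unbroken match of 38 bases, and Ago2 differed at 30, with none longer than 17. The shared run made up 2.09% of the annotated exon bases of Ago1 and 1.03% of those of Ago3. The sources used here do not say how the counting treated reads that fit more than one gene. The counts of Ago1 and Ago3 are uncertain for this reason, by an amount that was not measured. If such reads were given to either gene, these percentages would understate the amount for Ago1, since Ago3 had far more counts. If they were left out of the counts, this would not follow. For each Ago1 count there were 11.3 and 9.91 Ago3 counts in the mock libraries and 5.03 and 4.63 in the BMH21 libraries. Ago1 also shared an unbroken run of 53 coding bases with Ago2.

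Per kilobase of annotated exon the PIWI mRNAs were far above the Argonaute mRNAs. Piwil1 stood at 177 ± 2.63 CPM per kilobase in mock and at 159 ± 0.657 after BMH21 (SD, n = 2 libraries), which placed its mock mean in the top 1.29% of 15670 genes with an annotated length. Piwil2 stood at 50.1 ± 0.583 and 61.6 ± 0.824 on the same scale, in the top 7.35% in mock. Ago4 was the most abundant Argonaute mRNA at 9.76 ± 0.128 and 10.95 ± 0.285, followed by Ago2 at 2.47 ± 0.0803 and 1.99 ± 0.0093, Ago3 at 2.28 ± 0.138 and 2.09 ± 0.130, and Ago1 at 0.439 ± 0.0147 and 0.886 ± 0.106. Piwil1, Piwil2, Ago4 and Ago1 kept their places in all 4 libraries. Ago2 was above Ago3 in both mock libraries and below it in both BMH21 libraries, by differences of about the spread between replicates, and Ago3 was above Ago2 in all 4 libraries per kilobase of coding sequence. The order of this pair depends on the length used, since Ago2 and Ago3 each had 2580 coding bases but 14031 and 16571 annotated exon bases. The annotated 3′ untranslated part took 80.2% of the longest Ago2 transcript and 81.7% of that of Ago3, against 29.1% for Piwil1. Together the PIWI mRNAs made up 93.8% ± 0.0765 of the summed level of all 6 per kilobase in mock and 93.3% ± 0.252 in BMH21 (SD over n = 2 libraries). This share too depends on the length used. Per kilobase of coding sequence it was 87.5% ± 0.224 in mock and 87.0% ± 0.474 in BMH21.

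Treated and mock cells were compared to see which of these mRNAs differ after the inhibitor. The PIWI mRNAs moved in opposite directions, Piwil1 down and Piwil2 up, and so did the Argonaute mRNAs, with Ago1 and Ago4 up and Ago2 down. Of the 6 genes, all of which passed the filter on low counts, 3 rose, 2 fell and 1, Ago3, was not called (quasi-likelihood test of edgeR, with p adjusted by Benjamini-Hochberg over 13793 genes and a threshold of 0.05). Over all tested genes 29.1% were called, 16.5% higher and 12.5% lower, and the share grows with the level of a gene, from 21.7% at a mean of 1 to 10 CPM (12.4% higher, 9.33% lower) through 36.5% at 10 to 100 CPM (20.3% higher, 16.3% lower) to 44.6% at 100 CPM or more (25.4% higher, 19.2% lower). Among autosomal genes 27.9% were called. The 5 calls among 6 genes, 83.3%, are above each of these shares, and no test was made of so short a list. The genes were also chosen with earlier results of these data known, which limits this comparison. The split of all calls was 2282 higher and 1731 lower, and with upper quartile scaling 1805 and 2480. The median over genes of the shift in log2 fold change under that scaling was -0.05. The median log2 fold change of the 6 genes was 0.02, against 0.00 over all tested genes. In all 6 genes the CPM of the 2 groups did not overlap, which held for 60.9% of the tested genes. In sorted cells in bulk, fewer cells of a kind and less RNA per cell cannot be told apart.

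**Figure D1:**
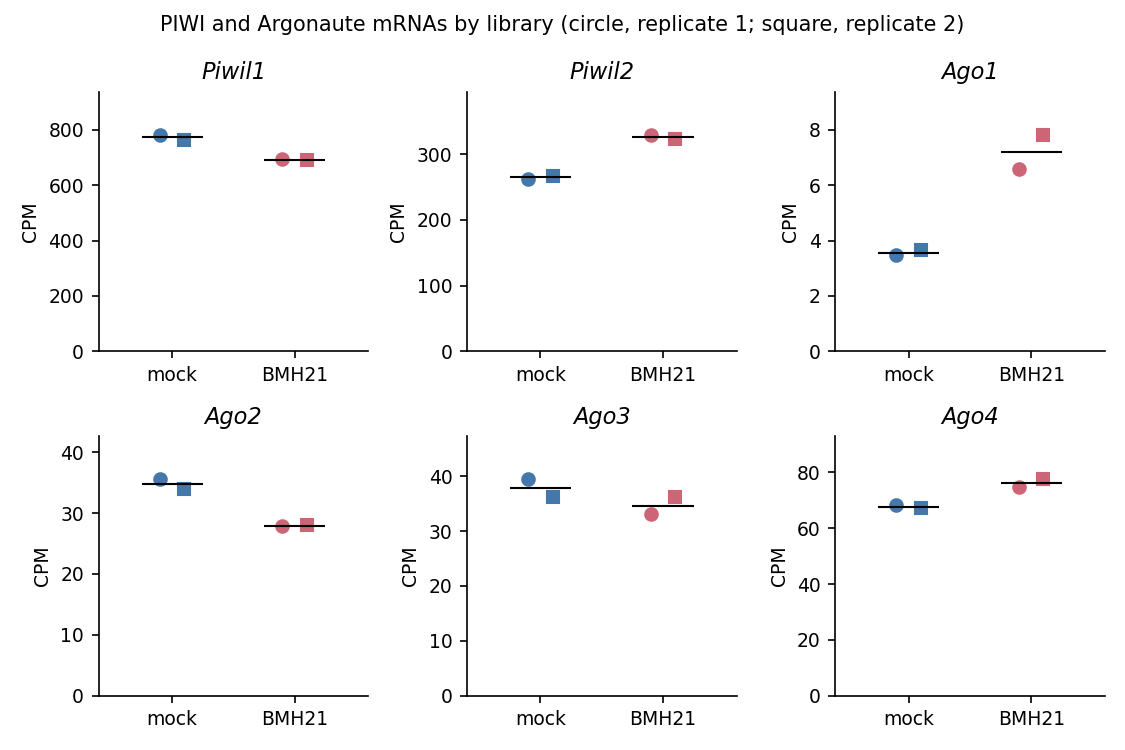
Expression of each gene in CPM (vertical axes, from 0) in the mock (blue) and BMH21 (red) libraries, with replicate 1 as a circle, replicate 2 as a square and the group mean as a line. The groups lie apart in each panel, by the least for Ago3 (36.2 CPM in the lower mock library and 36.1 CPM in the higher BMH21 library).

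Piwil1, whose protein is a main carrier of pachytene piRNAs, was counted at 780 and 764 CPM in the mock libraries and at 694 and 690 CPM in the BMH21 libraries. Both treated libraries were below both mock libraries. The mean fell from 772 ± 11.4 CPM to 692 ± 2.86 CPM (SD over n = 2 libraries), or -10.3%. edgeR put the log2 fold change at -0.16 (SE 0.02), adjusted p = 8.28e-08. The gene (ENSMUSG00000029423, chromosome 5, 128702524 to 128755474, plus strand, GRCm38) had no exon in common with another annotated gene. Among 2466 autosomal genes with a mean of 100 CPM or more, 18.3% had a larger change in size.

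Piwil2 encodes the PIWI protein that takes part in making piRNAs from both earlier and pachytene precursors. Its mRNA was at 263 and 267 CPM in mock and at 329 and 323 CPM in BMH21, higher in both treated libraries. The mean rose from 265 ± 3.08 CPM to 326 ± 4.36 CPM (SD over n = 2 libraries), or by 23.1%. edgeR put the log2 fold change at 0.30 (SE 0.03), adjusted p = 3.50e-13. Of the autosomal genes with a mean of 100 CPM or more, 3.28% changed by more. Piwil2 (ENSMUSG00000033644) lies on chromosome 14 at 70372477 to 70429383, minus strand, with no exon overlap.

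The ratio of the PIWI mRNAs within a library does not depend on scaling between libraries. There were 2.97 and 2.86 Piwil1 counts per Piwil2 count in mock and 2.11 and 2.14 in BMH21. The ratio was thus lower in both treated libraries, with a mean of 2.92 ± 0.0772 against 2.12 ± 0.0196 (SD over n = 2 libraries), a difference of -27.1%. An exact permutation test of 2 libraries against 2 cannot give a two-sided p below 0.333, so none is given. Since the changes ran in opposite directions, the summed level of both genes differed little, at 1043 and 1031 CPM in mock and 1023 and 1013 CPM in BMH21.

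Ago1, an Argonaute with little or no slicing activity, was the weakest of the 6 and had the largest change. It was counted at 3.48 and 3.65 CPM in mock, from 146 and 114 counts, and at 6.58 and 7.80 CPM in BMH21, from 218 and 289 counts. Both treated libraries were well above both mock libraries, and they differed from each other by more than the mock libraries did. The mean rose from 3.56 ± 0.119 CPM to 7.19 ± 0.862 CPM (SD over n = 2 libraries), or 2.02-fold. edgeR put the log2 fold change at 1.02 (SE 0.18), adjusted p = 7.35e-06. Counting error alone is 9.37% for the smallest of these counts. Of 3878 autosomal genes with a mean of 1 to 10 CPM, 7.09% changed by more. The gene (ENSMUSG00000041530) lies on chromosome 4 at 126435012 to 126468583, minus strand, and shares exons with no other annotated gene.

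Ago2, the slicing Argonaute of the microRNA pathway, was at 35.5 and 33.9 CPM in mock and at 27.8 and 28.0 CPM in BMH21. The treated libraries were lower and close to each other. The mean fell from 34.7 ± 1.13 CPM to 27.9 ± 0.130 CPM (SD over n = 2 libraries), or -19.7%. edgeR put the log2 fold change at -0.32 (SE 0.08), adjusted p = 0.00126. Of 4999 autosomal genes with a mean of 10 to 100 CPM, 18.8% changed by more. Ago2 (ENSMUSG00000036698, chromosome 15, 73095844 to 73184935, minus strand) shares 219 exon bases, 1.56% of its own, with Chrac1 on the other strand, and Chrac1 averaged 187 CPM (mock) and 179 CPM (BMH21) (log2 fold change -0.06, edgeR adjusted p = 0.194).

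Ago4, whose protein has been linked to silencing of the sex chromosomes in spermatocytes, was at 68.4 and 67.2 CPM in mock and at 74.7 and 77.5 CPM in BMH21. Both treated libraries were higher, by a margin that is small beside the change of Ago1. The mean rose from 67.8 ± 0.890 CPM to 76.1 ± 1.98 CPM (SD over n = 2 libraries), or by 12.2%. edgeR put the log2 fold change at 0.17 (SE 0.05), adjusted p = 0.0134. Of the autosomal genes with a mean of 10 to 100 CPM, 42.7% had a larger change. This call was lost with upper quartile scaling (log2 fold change 0.12, adjusted p = 0.0825), without mock replicate 2 (0.15, adjusted p = 0.0981) and without BMH21 replicate 2 (0.14, adjusted p = 0.136), and the authors' deposited table gives it an adjusted p of 0.0568. Ago4 (ENSMUSG00000042500) lies on chromosome 4 at 126489541 to 126533472, minus strand.

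Ago3, which encodes another microRNA-binding Argonaute, was at 39.4 and 36.2 CPM in mock and at 33.1 and 36.1 CPM in BMH21. The replicates of each group lay about as far apart as the groups did. The means were 37.8 ± 2.29 CPM and 34.6 ± 2.16 CPM (SD over n = 2 libraries). No difference was called, at a log2 fold change of -0.13 (SE 0.08) and adjusted p = 0.226 in edgeR. A larger change was found in 52.6% of the autosomal genes at this level. The gene (ENSMUSG00000028842) lies on chromosome 4 at 126331704 to 126429556, minus strand.

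**Figure D2:**
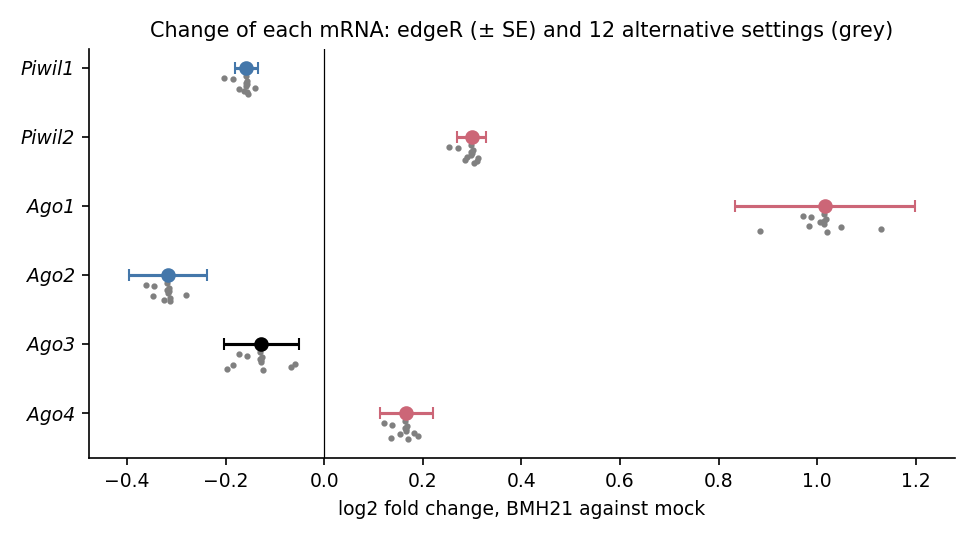
Log2 fold change of BMH21 against mock (horizontal axis) for each gene, with the edgeR estimate and its SE (red higher, blue lower, black not called) and, in grey below it, the estimates under 12 alternative settings. No estimate crosses 0, and those of Ago1 span 0.88 to 1.13.

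The makeup of the Argonaute mRNAs shifted within the libraries as well, again independently of scaling. Ago1 gave 2.37% (95% exact binomial interval 2.00 to 2.78) and 2.59% (2.14 to 3.10) of the counts of the 4 Argonaute genes in mock. In BMH21 it gave 4.63% (4.05 to 5.27) and 5.22% (4.65 to 5.84). These intervals cover counting error only, and those of the groups did not meet. The share of Ago2 went from 24.13% ± 0.0805 to 19.15% ± 0.584 and that of Ago4 from 47.1% ± 0.753 to 52.2% ± 0.479, while Ago3 was at 26.2% ± 0.827 and 23.7% ± 0.645 (SD over n = 2 libraries). For each Ago1 count there were 9.75 Ago2 counts in mock and 3.91 in BMH21, and 1.95 Ago4 counts for each Ago2 count became 2.73. Summed over the 4 genes the level hardly differed, at 147 and 141 CPM in mock and 142 and 149 CPM in BMH21, and these ranges overlapped.

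**Figure D3:**
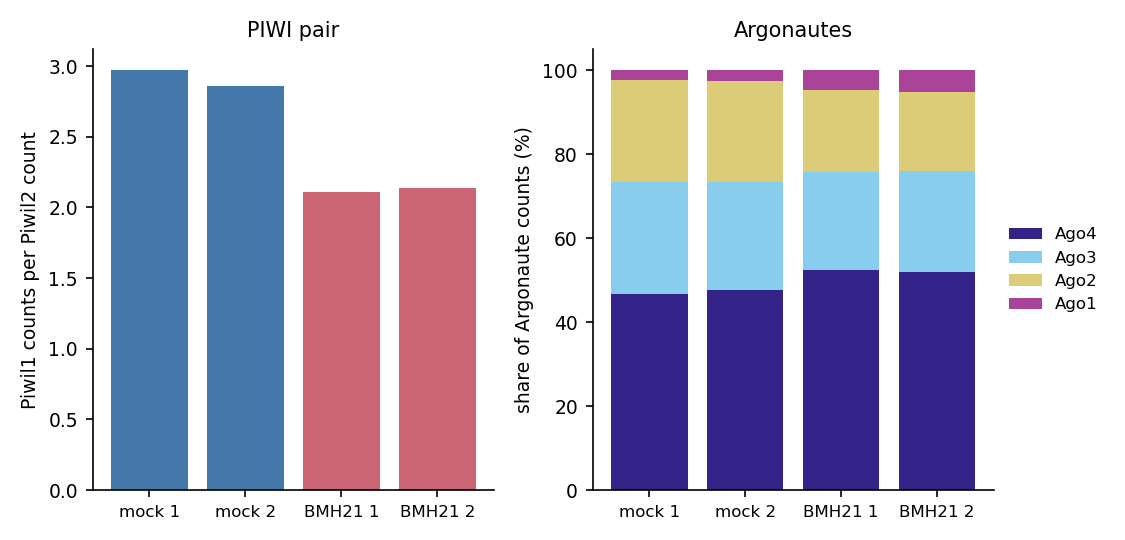
Left, counts of Piwil1 per count of Piwil2 in each library (bars from 0; blue mock, red BMH21). Right, the share of each Argonaute gene in the counts of the 4 Argonaute genes, in percent, for the same libraries. The Piwil1 to Piwil2 ratio is 2.97 and 2.86 in mock against 2.11 and 2.14 in BMH21, and the Ago1 share is higher in both BMH21 libraries.

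Ago3, Ago1 and Ago4 lie in a row on chromosome 4, all on the minus strand, with 5.46 kb between Ago3 and Ago1 and 20.96 kb between Ago1 and Ago4. Adjacent genes of this cluster did not share one change, since the log2 fold changes were -0.13, 1.02 and 0.17 in that order. For each count of Ago1 there were 10.6 ± 0.997 counts of Ago3 in mock and 4.83 ± 0.279 in BMH21 (SD over n = 2 libraries). The flanking genes are a set looked up after the member values were known. Of the 6 listed genes on each side, 11 were tested, of which 3 rose (Map7d1, Thrap3 and Clspn), 2 fell (Sh3d21 and Tekt2) and 6 were not called, where 29.1% of all tested genes were called. The nearest tested neighbours were Tekt2, which encodes a tektin of the sperm flagellum, on the side of Ago3 (log2 fold change -0.21), and Clspn, which encodes the checkpoint protein claspin, on the side of Ago4 (0.47).

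**Figure D4:**
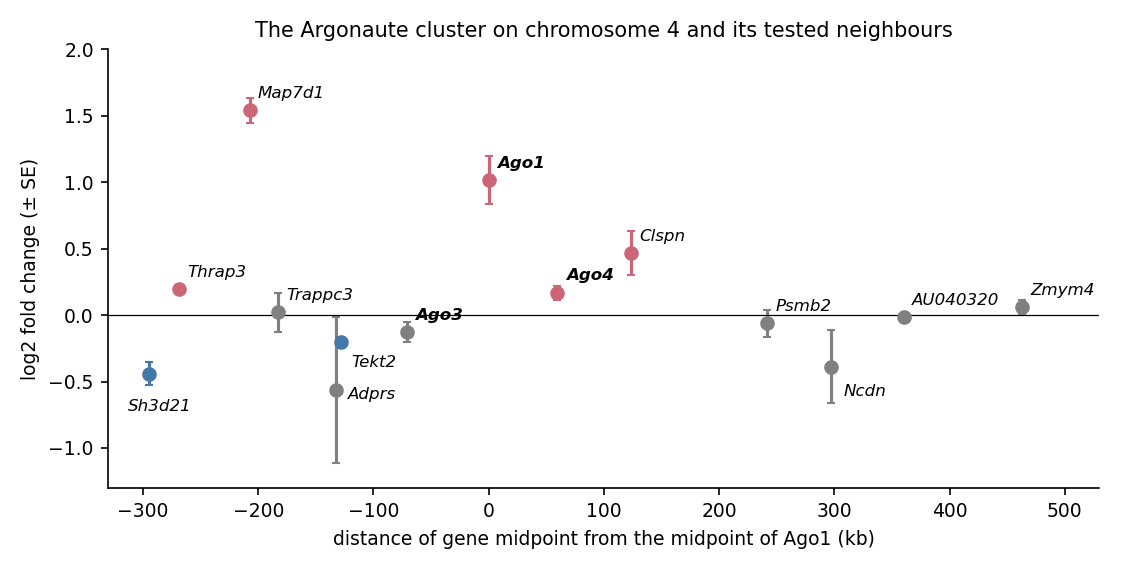
Log2 fold change with its SE (vertical axis) of the 3 clustered Argonaute genes and their 11 tested neighbours, against the distance of each gene's midpoint from that of Ago1 in kb (red higher, blue lower, grey not called). Ago1 at 1.02 lies between Ago3 at -0.13 and Ago4 at 0.17.

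Among the factors that make piRNAs and bind PIWI proteins, calls were made in both directions. Of 22 such genes, all tested, 5 rose, 6 fell and 11 were not called, so that 11 of 22 were called where the share is 29.1% over all tested genes and 44.6% of those at 100 CPM or more, with a median log2 fold change of 0.01 against 0.00 over all tested genes, and 0.52 was the largest size of a called change. The count depended on the libraries: without mock replicate 1 it was 3 higher and 2 lower, and without mock replicate 2 it was 2 and 3. Of the genes of Tudor-domain proteins, Rnf17 (331 to 399 CPM, 0.27) and Tdrd5 (308 to 347 CPM, 0.17) rose. Tdrd9 (359 to 337 CPM, -0.09) and Tdrd6 (1722 to 1659 CPM, -0.05), named here after their values were seen, fell, and Tdrd1, Tdrd7 and Tdrd12 were not called. Tdrkh, which encodes the mitochondrial anchor that holds PIWI proteins for trimming of their piRNAs, rose by 0.21 and lost its call without mock replicate 2 (0.16, edgeR adjusted p = 0.0877). Wdr77 fell from 36.4 to 25.5 CPM (-0.52) and Prmt5 from 94.9 to 82.1 CPM (-0.21), and their products form the complex that methylates arginines of PIWI proteins, the marks to which Tudor proteins bind.

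Among the enzymes of piRNA maturation, Mov10l1, the helicase that hands precursors to PIWI proteins, fell by 0.13 on the log2 scale, from 134 to 122 CPM. Pld6, the mitochondrial nuclease associated with the 5′ ends of piRNAs, rose by 0.13, from 83.8 to 91.7 CPM. Mybl1, which encodes A-MYB, the transcription factor that activates pachytene piRNA loci and Piwil1, fell by 0.11, from 208 to 193 CPM. These 3 calls were each lost when any of 3 libraries was left out. In order of leaving out mock replicate 1, mock replicate 2 and BMH21 replicate 1, the log2 fold change was -0.14, -0.12 or -0.11 for Mov10l1, 0.13, 0.13 or 0.07 for Pld6 and -0.10, -0.11 or -0.07 for Mybl1, and none was then called. Without BMH21 replicate 2 all 3 were called (-0.15, 0.19 and -0.15). Mybl1 was also not called by DESeq2 (-0.11), nor Pld6 by DESeq2 (0.13, adjusted p = 0.136), with upper quartile scaling (0.08) or with library size alone (0.10). The piRNA 3′ trimmer Pnldc1 (5.49 and 5.87 CPM, log2 fold change 0.10) and the 3′ end methyltransferase Henmt1 (37.3 and 35.1 CPM, -0.09) were not called. Pnldc1 turned to -0.022 without BMH21 replicate 2, and Henmt1 was at -0.042 without mock replicate 1.

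A list around PIWIL4 and the DNA methylation of transposons also held maintenance methylation genes and Tex19.1. Of its 9 tested genes, 2 rose, 1 fell and 6 were not called. Thus 33.3% were called against 29.1% over all tested genes. The called genes were Dnmt1, Uhrf1 and Tex19.1, so this share does not describe the methylation step that PIWIL4 directs. Those not called, named here after their values were seen, were Dnmt3a, Dnmt3c, Dnmt3l, Morc1, Spocd1 and Tex15. Spocd1 averaged 7.09 and 7.12 CPM and Tex15 10.9 and 11.9 CPM (mock, then BMH21). The rest were weaker: Dnmt3a 0.85 and 0.45 CPM, Dnmt3c 0.48 and 0.54, Dnmt3l 1.04 and 1.09, Morc1 2.13 and 1.43. The SE of their log2 fold changes were 0.56, 0.61, 0.43 and 0.33 in that order. At such levels a missing call does not show that a gene was unchanged. Dnmt1, the maintenance methyltransferase, rose from 147 to 190.2 CPM (0.37), and Uhrf1, its recruiting factor, fell from 169 to 137 CPM (-0.30). Tex19.1, a germline gene involved in control of retrotransposons, rose from 1.31 to 4.70 CPM (1.86).

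Genes that make microRNAs, the guides of the AGO proteins, also moved both ways. Of 20 listed, 19 were tested, with 7 higher, 4 lower and 8 not called, and a median log2 fold change of 0.06. The share called was 57.9% against 29.1% over all tested genes, and with upper quartile scaling or library size alone the split was 5 higher and 5 lower. Dicer1, the nuclease that cuts microRNA precursors in the cytoplasm, was at 1.14 and 1.15 CPM in mock and at 6.49 and 7.83 CPM in BMH21. Like Ago1 it was weakly expressed and higher in both treated libraries, and edgeR put its log2 fold change at 2.64 (SE 0.23), adjusted p = 1.92e-15. Drosha, the nuclease of the preceding nuclear step, fell from 22.4 to 15.5 CPM (-0.53), and its partner Dgcr8 was not called (46.3 and 48.9 CPM, 0.08). Hsp90ab1, a chaperone that helps to load AGO proteins, rose by 0.37 and the precursor exporter Xpo5 by 0.17, whereas Srrt, which encodes the cofactor ARS2, had a log2 fold change of -0.15 and Lin28b, an inhibitor of let-7 maturation, of -0.37, and both were called lower.

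Of 26 tested genes for the proteins that carry out silencing with AGO, 9 rose, 6 fell and 11 were not called, with a median log2 fold change of 0.02. The share called was 57.7%, again beside 29.1% over all tested genes. With upper quartile scaling 7 were higher and 8 lower, and in DESeq2 6 and 4. The GW182 scaffold genes, whose products bind AGO directly, differed among themselves in call. Tnrc6c, the most abundant in CPM of the 3, fell from 182 to 155 CPM (-0.23). Tnrc6a was at 16.9 and 17.2 CPM (0.02, but -0.024 with upper quartile scaling and -0.0069 with library size alone) and Tnrc6b at 3.65 and 3.20 CPM (-0.19), neither of them called. Genes of mRNA decay were found on both sides: the exonuclease gene Xrn1 rose from 27.7 to 53.6 CPM (0.95) and the deadenylase genes Cnot6l (9.16 to 19.06 CPM, 1.06) and Cnot7 (135 to 184 CPM, 0.44) rose, while the decapping scaffold gene Edc4 (314 to 246 CPM, -0.35) and the deadenylase gene Pan2 (140.3 to 121 CPM, -0.21) fell.

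Of 9 tested regulators of AGO loading, import and turnover, 3 rose, 2 fell and 4 were not called (55.6% called, with 29.1% over all tested genes). Ankrd52, a subunit of the phosphatase that removes phosphates from AGO2, rose from 8.40 to 24.1 CPM (1.53), and Tsn, which encodes translin, by 0.27. Zswim8, the ubiquitin ligase receptor that marks AGO for degradation when a target pairs extensively with its microRNA, rose by 0.12 and lost its call with upper quartile scaling (0.08) and without mock replicate 1 (0.11) or BMH21 replicate 1 (0.06). Gigyf2, a translational repressor gene, fell with a log2 fold change of -0.14 and lost its call without BMH21 replicate 1 (-0.10). Ipo8, the import receptor that binds AGO proteins, fell from 7.82 to 5.50 CPM (-0.51), a call not made without mock replicate 2 (-0.48) or by DESeq2 (-0.51).

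**Figure D5:**
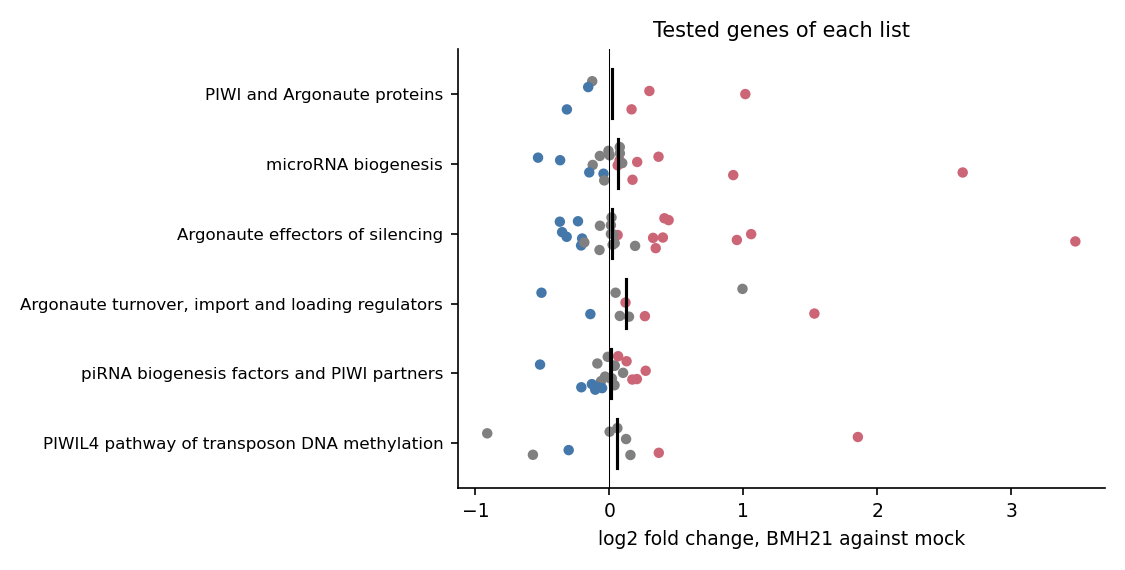
Log2 fold change of BMH21 against mock (horizontal axis) for every tested gene of the PIWI and Argonaute group and of 5 lists of their partners, 1 point per gene (red called higher, blue called lower, grey not called), with the median of each list as a bar. All medians lie between 0.01 and 0.12, and each list holds genes called in both directions.

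The genes whose pattern over the 4 libraries was most like that of each called member were found by the root mean square difference of log2 CPM values, each gene centred on its own mean, among 7560 genes averaging 10 CPM or more. This measure over 4 libraries describes likeness only. For Piwil1 they were Ak8 and Adat3 (differences 0.0052 and 0.0064), for Piwil2 Pym1 and Unc50 (0.0057 and 0.0073), for Ago2 Liat1 and Gm550 (0.0048 and 0.0099) and for Ago4 1700020N01Rik and Mrpl13 (0.0019 and 0.0051). For Ago1 the nearest were Cnot6l, the deadenylase gene named above, and Zdhhc13, both at a larger difference of 0.055. Ago1 itself, at 3.56 and 7.19 CPM, was below the limit of 10 CPM, so no gene of its own level was compared. As 0.5 CPM was added before the log, its change counted for less here.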

How the data were processed

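The deposited data are 1 table of protein-coding genes holding, per the file headers, raw read counts for each gene and library. All tests start from these counts. The size-factor-normalized values (signal) in it were made by the authors and entered no test. The log2 fold changes, their standard errors, the Wald score and the p-values in it are the authors' DESeq2 output, per the file headers. The submitters' processing notes name fastp, STAR, SAMtools, featureCounts, DESeq2 and mm10. Per the labels' protocols the mRNA kit keeps strand, and whether the counting used it is not stated in these sources.

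Genes were tested in R 4.3.3 with edgeR 4.0.16: filterByExpr (minimum count 10), TMM scaling, the quasi-likelihood test with group alone, and Benjamini-Hochberg adjustment over 13793 genes, called under 0.05. The common biological coefficient of variation was 4.09%. CPM uses TMM-scaled library sizes. The SE is the log2 fold change divided by the square root of F. As each group has 2 libraries, the spread behind a p-value is pooled over genes. DESeq2 1.42.0 was an alternative. Coordinates and lengths are those of GENCODE M21 (GRCm38), matched by identifier, since 0 of the 6 genes had the same position in the table. Coding sequences were aligned with Biopython 1.88.

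The members and lists were chosen with earlier results of these data known. Text names every member, up to 3 called genes per direction and list with the smallest p, 11 fixed enzymes and partners in any case, and the 2 genes most alike to each called member. Chrac1 and the neighbours on chromosome 4 were added afterwards.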

Additional observations from a re-analysis of the deposited data

How the results depend on the processing

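Over 12 alternatives, 69 of 72 log2 fold changes of the 6 genes kept their side of the threshold and all 72 their direction: Piwil1 ran from -0.20 to -0.14, Piwil2 from 0.25 to 0.31, Ago1 from 0.88 to 1.13 and Ago2 from -0.36 to -0.28, all called, and Ago3 from -0.20 to -0.06, never called. Ago4 lost its call with upper quartile scaling (0.12) and without mock replicate 2 (0.15) or BMH21 replicate 2 (0.14). With 1 library left out it ran from 0.14 to 0.19. The alternatives were RLE, upper quartile or no scaling factors, no filter or a stricter one, DESeq2, the replicate block, each library left out and, added after the data were seen, autosomal genes alone. In the piRNA list the higher calls were 3 with upper quartile scaling and 3 with library size alone, and with 1 library left out 2 to 4 higher and 2 to 6 lower. Regulators of AGO called lower were 1 in DESeq2 and 1 to 2 with 1 library left out. The mean PIWI share of the summed level differed in BMH21 by -0.56 percentage points per kilobase of exon. With 1 library left out this ran from -0.74 to -0.38, and both BMH21 libraries were below both mock libraries. In raw counts the means differed by -0.34, but the groups overlapped, since BMH21 replicate 1 was above mock replicate 1. The groups overlapped in the same way per kilobase of coding sequence, so a lower share was not seen on every scale. In the order per kilobase Ago2 and Ago3 changed places, so that 2 genes moved, in raw counts, with coding length (added later) and with 1 library left out (0 to 2 genes moved). Of 396 values of 33 named partner genes, 371 kept direction and side, 21 lost the call and 4 turned sign without being called: Pnldc1 without BMH21 replicate 2 (-0.022, in a range of -0.022 to 0.21 with 1 library left out), and Tnrc6a with upper quartile scaling (-0.024), library size alone (-0.0069) and without mock replicate 1 (-0.038, in a range of -0.038 to 0.080). The cause of these changes was not tested.

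The labels number the replicates alike in both groups. With the replicate block 2189 genes were higher and 1595 lower, and no member changed its call, while Pld6 lost its call (0.13, adjusted p = 0.0512). Deviations of same-numbered libraries from their group means correlated at 0.0096 over 7560 genes. The labels do not say whether libraries of one number share animals or a day. Where an arm kept 1 library, that library is assumed to vary like the others. Depth limits Ago1 most, with 114 to 289 counts.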
